A study of Mus musculus with 16 samples.

Results

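The immediate-early transcription factor genes described here are 10 genes chosen by symbol, *Fos*, *Fosl2*, *Jun*, *Junb*, *Egr1*, *Ier2*, *Ier3*, *Klf4*, *Klf6* and *Myc*, out of the 55450 genes quantified. Each symbol matched 1 gene, and all 10 were among the 11675 genes tested, those with a mean of at least 1 CPM (counts scaled to a common library size with edgeR's TMM factors) over the libraries. The libraries are bulk mRNA from hepatocytes that were isolated from wild-type mice and cultured, 16 in all and 4 for each of 4 groups: untreated cells, cells given 10 mM sodium itaconate, cells given a defined mixture of cholesterol and fatty acids (arachidonic, stearic, palmitic, oleic, myristic and linoleic acid) diluted 10-fold, and cells given both. All groups were kept overnight in DMEM with fetal bovine serum and insulin, transferrin and selenium, so the untreated cells were in serum too. The labels give no age or sex, and the study's methods name male mice for its animals in general. Libraries carry the replicate letters A to D, 1 of each letter in every group. The labels do not say whether a letter is an animal or a preparation, so p values measure the spread between these libraries, which may be technical.

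Immediate-early genes are transcribed within minutes of a growth factor, cytokine or stress signal, without new protein synthesis, and many of their transcripts are short-lived. FOS and JUN proteins pair to form the transcription factor AP-1, EGR1 and the KLF proteins bind GC-rich DNA, MYC drives growth genes together with MAX, and IER2 and IER3 are small early-response proteins. In the liver these genes rise on partial hepatectomy, on injury and when hepatocytes are isolated and plated.

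Between lipid-treated and untreated hepatocytes *Fos*, *Junb*, *Ier3*, *Klf6* and *Myc* fell, the largest change being that of *Klf6*, which fell by 25.3%, and the smallest that of *Ier3*, which fell by 16.3%, and the other 5 did not pass the test. Of all genes tested 47.5% were called in that comparison. With itaconate in both groups *Fos*, *Junb*, *Klf6* and *Myc* fell while *Ier2* rose, where 47.0% of all genes were called. Under 23 alternative models or sets of libraries the *Ier2* rise was called in 16. Itaconate alone changed none of the 10 past the threshold (4.91% of all genes passed). On top of lipid, itaconate went with higher *Junb* and *Ier2* (2.58% of all genes passed), called in 13 and 16 of the 23 alternatives.

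To show what lies before some of the genes that did and did not fall with lipid, the 250 bases before the RefSeq start of *Fos*, *Junb* and *Klf6*, which fell both without and with itaconate, and of *Jun*, for which neither comparison passed the threshold, are given 5′ to 3′ on the gene's strand (RefSeq, GRCm38.p6). *Fosl2* and *Klf4*, for which neither comparison passed either, are not printed. Their sites are given below, and no contrast between falling and other genes was tested. Capitals mark each TGACG, which is the core of a cAMP response element, each GC box with the letters GGGCGG, each E-box with the letters CACGTG, and the TATA box of *Fos* with the letters TATAAA. Both strands were searched, so that a GC box on the other strand reads CCGCCC.
Fos, chr12:85473640-85473889, plus strand: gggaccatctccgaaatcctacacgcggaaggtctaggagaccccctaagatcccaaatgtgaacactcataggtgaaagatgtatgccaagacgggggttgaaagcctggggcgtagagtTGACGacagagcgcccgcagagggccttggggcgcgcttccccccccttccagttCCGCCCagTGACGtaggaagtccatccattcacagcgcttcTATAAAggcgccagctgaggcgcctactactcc
Junb, chr8:84978749-84978998, minus strand: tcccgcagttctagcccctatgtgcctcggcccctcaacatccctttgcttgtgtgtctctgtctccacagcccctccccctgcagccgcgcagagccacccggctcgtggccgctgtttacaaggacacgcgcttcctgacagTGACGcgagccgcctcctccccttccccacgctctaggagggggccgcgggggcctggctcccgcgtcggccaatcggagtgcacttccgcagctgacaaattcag
Klf6, chr13:5861239-5861488, plus strand: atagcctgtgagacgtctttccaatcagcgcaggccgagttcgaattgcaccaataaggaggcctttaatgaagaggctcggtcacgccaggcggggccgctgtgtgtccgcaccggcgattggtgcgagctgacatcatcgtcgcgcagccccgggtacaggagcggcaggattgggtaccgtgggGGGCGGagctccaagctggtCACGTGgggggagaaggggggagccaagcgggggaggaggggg
Jun, chr4:95052223-95052472, minus strand: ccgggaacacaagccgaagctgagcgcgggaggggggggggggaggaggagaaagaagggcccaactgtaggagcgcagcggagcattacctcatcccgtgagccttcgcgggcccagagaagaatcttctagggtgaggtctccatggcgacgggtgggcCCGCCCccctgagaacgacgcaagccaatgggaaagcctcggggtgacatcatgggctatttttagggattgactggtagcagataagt

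RefSeq promoter sequences were at hand for 7 of the 10 genes (*Fos*, *Fosl2*, *Jun*, *Junb*, *Ier3*, *Klf4* and *Klf6*), and shares are over all 32851 promoters of the same length. TATAAA was found in *Fos* alone of the 7, at position −33 counted back from the start, and in 12.4% of all promoters. TGACG was found in *Fos* at −129 and −66, in *Junb* at −106 and in *Klf4* at −232, and in 17.8% of all promoters. GGGCGG was found in every one of the 7 but *Junb*, against 32.7% of all promoters, and CACGTG in *Klf6* at −43 and *Klf4* at −182, against 6.02%. The EGR1 site GCGNGGGCG, which can overlap GGGCGG, was found in *Fosl2* and *Klf4* (4.70% of all promoters). None of the 7 windows held the full element TGACGTCA (1.55% of all promoters), the AP-1 site TGANTCA (6.75%) or the CArG box of serum response factor (1.47%). Only these patterns within 250 bases were searched, so sites farther upstream or with other letters were not looked for. The base composition of the windows ran from 54.4% GC (*Ier3*) to 74.0% (*Klf4*), with a median of 52.4% over all promoters. The windows follow RefSeq starts. That of *Fosl2* lies wholly inside the GENCODE gene, and those of *Ier3* and *Klf6* end inside theirs.

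The 10 genes are short. Their median span was 4609.5 bp, from 1240 bp (*Ier3*) to 22042 bp (*Fosl2*), against 22159 bp over all genes tested, and their median number of merged exon blocks was 3.5 against 9, with *Jun* and *Ier2* in 1 block. Divided by the length of the merged GENCODE exons, *Junb* had the highest level of the 10, 176 ± 24.6 CPM per kb (SD, n = 4) in untreated hepatocytes. A group without clear order followed, in which each gene overlapped the next over the 4 libraries: *Myc* (69.3), *Klf6* (63.8), *Jun* (63.7), *Ier2* (60.6) and *Ier3* (54.0). *Egr1* (29.4), *Fosl2* (11.5), *Fos* (7.95) and *Klf4* (1.47) each lay below all libraries of the gene before. The median over all genes tested was 5.97 CPM per kb, above *Klf4* only. In lipid-treated hepatocytes the order of the middle genes was *Jun* (65.6), *Ier2* (59.6), *Myc* (54.6), *Klf6* (47.6) and *Ier3* (45.1), with *Myc* above *Klf6* in every library of the group and the other neighbours overlapping. With both agents it was *Ier2* (67.6), *Jun* (64.0), *Myc* (52.3), *Klf6* (50.9) and *Ier3* (45.6). In itaconate-treated cells the order was that of untreated cells, but *Fosl2* and *Fos* overlapped.

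**Figure D1:**
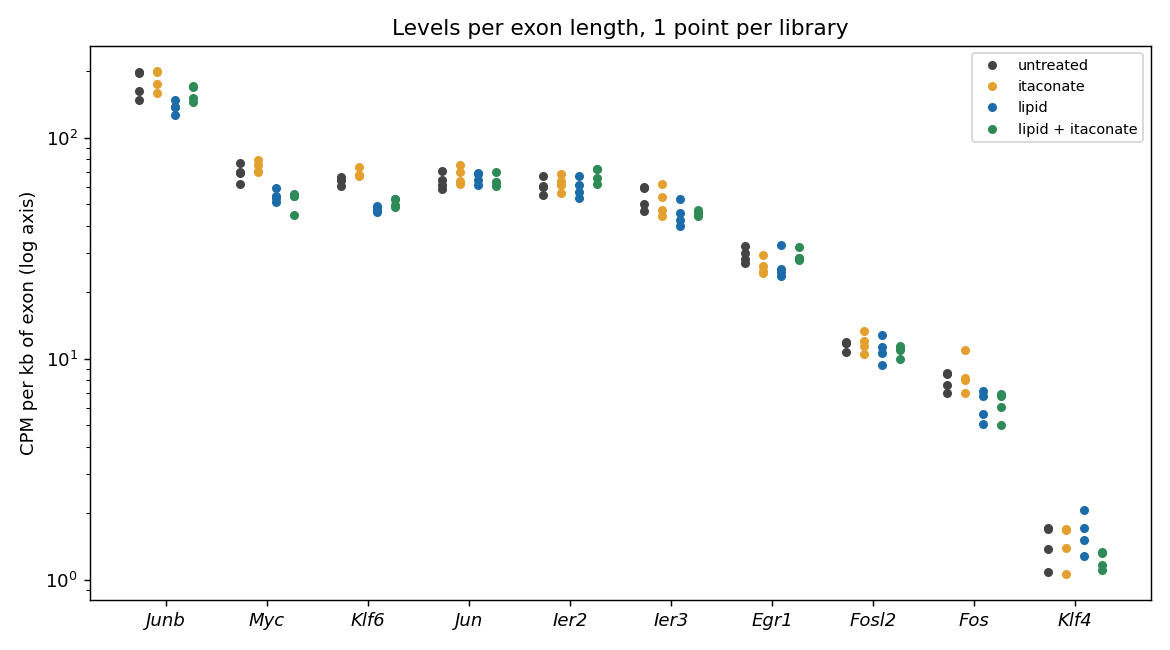
Level of the 10 genes in CPM per kb of exon on a log axis, 1 point per library, coloured by group and ordered by the mean in untreated hepatocytes. *Junb* lies above every other gene in all 16 libraries, *Myc* to *Ier3* overlap, and *Klf4* lies lowest, between 1 and about 2 CPM per kb.

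The totals of expected counts ran from 22346049 to 35512004 per library, and the 10 genes together took 0.128% to 0.158% of them. Libraries of a group differed by 10.0 to 147 times counting noise (chi-square per gene, 24 pairs), so none was a copy of another. Lipid + itaconate B stood apart, at 106 to 147 against its group mates, with 64.5 as the highest value of any pair without it. Leaving it out kept the number of members called for lipid against untreated and moved it from 2 to 1 for lipid + itaconate against lipid (*Junb* lost, adjusted p = 0.0540 by edgeR's quasi-likelihood test) and from 5 to 6 for lipid + itaconate against itaconate (*Egr1* gained). Over all 11675 genes, in the same order, calls went from 5546 to 5686, from 301 to 136 and from 5483 to 5288. The share of mitochondrial counts ran from 3.27% to 4.70% in 14 libraries and was 4.97% and 6.01% in lipid + itaconate D and C.

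The first comparison, lipid-treated against untreated, shows what the lipid load did in the absence of itaconate. By edgeR's quasi-likelihood test 5 of the 10 genes passed an adjusted p of 0.05, against 47.5% of all genes tested, and all 5 were lower, against 23.7% of all genes called lower. Of the 10, 8 had a negative log2 fold change, the median was −0.20, and the median over all genes tested was 0.005. The 2 groups of 4 libraries did not overlap for *Klf6* and *Myc*, 2 of 10, against 32.5% of all genes. In the second, lipid + itaconate-treated against itaconate-treated, 5 genes again passed, against 47.0% of all genes: 4 were lower (23.5% of all genes were called lower) and 1 was higher (23.5% were called higher). Here *Fos*, *Klf6* and *Myc* did not overlap, 3 of 10, against 31.4% of all genes, and the median was −0.18 (0.004 over all genes). The share of members called was thus near that of the whole table in both, and the calls were mostly lower. These comparisons share no library, but each shares its groups with the itaconate comparisons given later.

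**Figure D2:**
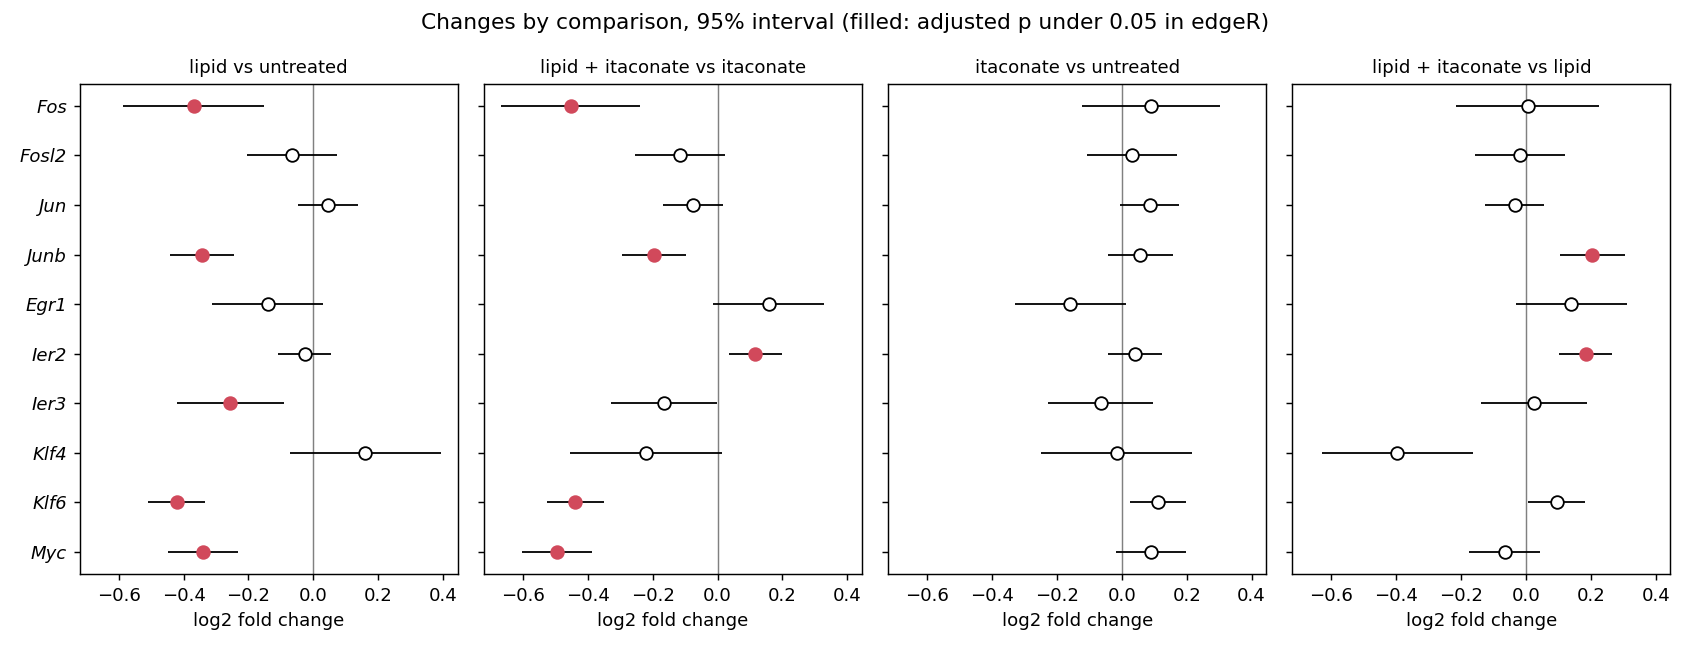
Log2 fold change of each gene with its 95% interval in 4 comparisons (edgeR's quasi-likelihood model), with filled red points for an adjusted p under 0.05. Both lipid comparisons (left) hold filled points below 0 for *Fos*, *Junb*, *Klf6* and *Myc*, the itaconate comparison without lipid holds none, and that with lipid holds *Junb* and *Ier2* above 0.

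Among the AP-1 genes, *Fos* (ENSMUSG00000021250.13, chr12:85473890-85477273, plus strand) encodes the partner that JUN proteins need for their most active dimers. Its level in replicates A, B, C and D was 20.1, 16.6, 20.4 and 17.8 CPM in untreated and 25.7, 16.4, 19.3 and 18.8 CPM in itaconate-treated hepatocytes. With lipid the 4 values were 13.2, 11.9, 16.0 and 16.8 CPM, and with lipid + itaconate 16.4, 11.8, 14.2 and 16.0 CPM. *Fos* was thus lower with lipid in all 4 letters, the groups overlapping without itaconate only through lipid D (16.8 CPM) and untreated B (16.6 CPM), and staying apart with it. It fell by 0.37 on the log2 scale without itaconate (SE 0.103, adjusted p = 0.00786 by edgeR's quasi-likelihood test) and by 0.45 with it (SE 0.101, adjusted p = 0.00195). Counts were 307 to 708 per library, and without the letter in the model the first change had an adjusted p of 0.0538.

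*Junb* (ENSMUSG00000052837.6, chr8:84974484-84978718, minus strand), a JUN protein with weaker activity than JUN on many AP-1 sites, was the most abundant of the 10. Its values were 451, 454, 374 and 341 CPM in untreated and 317, 342, 318 and 292 CPM in lipid-treated hepatocytes, A to D. In itaconate-treated cells they were 456, 460, 401 and 365 CPM, and with lipid + itaconate 392, 391, 348 and 334 CPM. Every letter was lower with lipid, by 0.22 to 0.51 on the log2 scale without itaconate and by 0.13 to 0.23 with it, and letters A and B were the high ones wherever lipid was absent, while the groups overlapped through untreated D (341 CPM) and lipid B (342 CPM) without itaconate and through itaconate D (365 CPM) with it. *Junb* fell by 0.34 (SE 0.0468, adjusted p = 2.73e-05 by edgeR's quasi-likelihood test) and, with itaconate, by 0.20 (SE 0.0466, adjusted p = 0.00298), and the second change lost the threshold without the letter in the model (adjusted p = 0.121). Its exons overlap those of *Prdx2* on the other strand (112 CPM), and since the strand setting of the counting is not given in the sources used here, reads of the 2 genes may not be told apart. *Prdx2* had log2 fold changes of 0.10 (adjusted p = 0.129, edgeR's quasi-likelihood test) and 0.17 (adjusted p = 0.0125) in the same comparisons.

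*Jun* (ENSMUSG00000052684.4, chr4:95049034-95052222, minus strand) encodes the founding JUN partner of AP-1. It stood at 225, 188, 205 and 196 CPM in untreated, 241, 196, 223 and 203 CPM in itaconate-treated, 220, 194, 217 and 206 CPM in lipid-treated, and 223, 201, 192 and 201 CPM in lipid + itaconate-treated hepatocytes. Letter A was the highest in every group and all groups overlapped. Its lipid differences were 0.04 (95% interval −0.05 to 0.14) and −0.08 (−0.17 to 0.02), and neither passed (adjusted p = 0.422 and 0.159, edgeR's quasi-likelihood test). *Junos*, an antisense gene that overlaps *Jun*, averaged 1.69 CPM.

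*Fosl2* (ENSMUSG00000029135.10, chr5:32135801-32157842, plus strand), a FOS relative without the strong activation domain of FOS, ranged from 90.8 to 129 CPM over the 16 libraries. It averaged 112 ± 5.05 CPM (SD, n = 4) in untreated, 114 ± 11.4 CPM in itaconate-treated, 107 ± 14.0 CPM in lipid-treated and 105 ± 6.19 CPM in lipid + itaconate-treated hepatocytes, with untreated D (104 CPM) well under the other untreated libraries (114 to 115 CPM). The lipid differences were −0.07 (95% interval −0.21 to 0.07) and −0.12 (−0.25 to 0.02), and neither passed (adjusted p = 0.420 and 0.156, edgeR's quasi-likelihood test).

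The make-up of the AP-1 families was set per exon length. Of the summed CPM per kb of *Jun*, *Junb* and *Jund*, *Junb* made up 42.6 ± 3.73% (SD, n = 4) in untreated and 36.0 ± 2.46% in lipid-treated hepatocytes, and *Jund* 41.8 ± 3.34% and 46.8 ± 2.15%. With itaconate the share of *Junb* was 42.0 ± 2.72% without and 38.9 ± 1.11% with lipid. Among the FOS genes *Fosl1*, which is no member of the 10, held 56.9% to 58.3% of the summed level per kb in every group, *Fosl2* 24.0% to 26.1%, *Fos* 14.6% to 17.5% and *Fosb* 1.17% to 1.53%. The summed level of the JUN genes was 411 ± 27.1 CPM per kb in untreated hepatocytes, and that of the FOS genes was 48.2 ± 3.04 CPM per kb. These shares are descriptions with no test.

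*Klf6* (ENSMUSG00000000078.7, chr13:5861482-5870394, plus strand), a zinc finger factor of hepatocytes and stellate cells, stood at 291, 282, 266 and 281 CPM in untreated and 203, 212, 207 and 214 CPM in lipid-treated hepatocytes. With itaconate the values were 322, 296, 295 and 298 CPM, and with lipid + itaconate 231, 233, 218 and 213 CPM. Every library without lipid lay above every library with it, and itaconate A was high in its group. *Klf6* fell by 0.42 (SE 0.0413, adjusted p = 1.16e-06 by edgeR's quasi-likelihood test) and by 0.44 with itaconate (SE 0.0411, adjusted p = 1.12e-06). Treatment accounted for 95.7% of its variance in log2 CPM over the 16 libraries and the letter for 1.66%, against medians of 46.9% and 20.6% over all genes tested.

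*Klf4* (ENSMUSG00000003032.8, chr4:55527143-55532466, minus strand), a reprogramming factor that hepatocytes express weakly, had 71 to 187 counts per library. It stood at 3.33, 4.21, 5.26 and 5.17 CPM in untreated, 3.23, 4.25, 5.20 and 5.13 CPM in itaconate-treated, 3.90, 4.63, 5.23 and 6.31 CPM in lipid-treated, and 3.39, 3.58, 4.06 and 4.05 CPM in lipid + itaconate-treated hepatocytes. Letters A and B were below C and D in every group, and the letter took 65.4% of the variance. The lipid differences were 0.16 (95% interval −0.07 to 0.39) and −0.22 (−0.45 to 0.01), and neither passed (adjusted p = 0.241 and 0.114, edgeR's quasi-likelihood test). Without lipid + itaconate A the second was −0.31 and passed (adjusted p = 0.0423).

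*Myc* (ENSMUSG00000022346.15, chr15:61985391-61990374, plus strand), the growth-promoting factor, stood at 208, 190, 168 and 188 CPM in untreated and 161, 139, 145 and 148 CPM in lipid-treated hepatocytes. With itaconate the values were 216, 204, 189 and 192 CPM, and with lipid + itaconate 148, 151, 121 and 148 CPM. As for *Klf6*, all libraries with lipid lay under all libraries without it, and lipid + itaconate C was the lowest of its group by a wide gap. *Myc* fell by 0.34 (SE 0.0509, adjusted p = 6.53e-05 by edgeR's quasi-likelihood test) and by 0.50 with itaconate (SE 0.0508, adjusted p = 2.37e-06).

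The 2 IER genes parted. *Ier3* (ENSMUSG00000003541.6, chr17:35821684-35822923, plus strand), an NF-κB target that modulates apoptosis, stood at 67.7, 67.2, 52.7 and 56.5 CPM in untreated, 51.6, 59.7, 45.0 and 47.8 CPM in lipid-treated, 69.4, 61.1, 49.8 and 53.1 CPM in itaconate-treated, and 50.2, 50.7, 53.2 and 52.3 CPM in lipid + itaconate-treated hepatocytes. It was lower with lipid in all 4 letters without itaconate and in 3 of 4 with it, and the groups overlapped both times. *Ier3* fell by 0.26 (SE 0.0774, adjusted p = 0.013 by edgeR's quasi-likelihood test), and with itaconate the difference was −0.17 (95% interval −0.33 to −0.0023, adjusted p = 0.0886). The first call was lost without untreated A (adjusted p = 0.0528) and without the letter in the model (0.0687), and the second was gained without lipid + itaconate C (0.00891).

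*Ier2* (ENSMUSG00000053560.4, chr8:84661331-84662852, minus strand), a small nuclear early-response protein, stood at 91.0, 103, 92.3 and 83.3 CPM in untreated and 93.1, 102, 86.3 and 81.0 CPM in lipid-treated hepatocytes. With itaconate it stood at 96.8, 104, 93.3 and 85.9 CPM, and with lipid + itaconate at 109, 109, 99.6 and 93.6 CPM. Letter B was the highest or level with A and letter D the lowest in every group. The lipid difference was −0.03 without itaconate (95% interval −0.11 to 0.06, adjusted p = 0.596 by edgeR's quasi-likelihood test), and with itaconate *Ier2* was higher with lipid in all 4 letters, by 0.12 (SE 0.0385, adjusted p = 0.0208). That call was lost without itaconate A or B or without lipid + itaconate A or D (adjusted p = 0.0543 to 0.0985), without the letter in the model (0.284), without a filter on low counts (0.106) and in a model of the 8 libraries alone (0.0564).

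*Egr1* (ENSMUSG00000038418.7, chr18:34859823-34864984, plus strand), the zinc finger factor induced by MAP kinase signalling, stood at 135, 145, 126 and 121 CPM in untreated, 111, 147, 106 and 114 CPM in lipid-treated, 133, 117, 110 and 112 CPM in itaconate-treated, and 125, 128, 143 and 128 CPM in lipid + itaconate-treated hepatocytes. All groups overlapped. Lipid B was high in its group, as was lipid + itaconate C. Its lipid differences were −0.14 (95% interval −0.31 to 0.03) and 0.16 (−0.01 to 0.33), and neither passed (adjusted p = 0.162 and 0.121, edgeR's quasi-likelihood test). Leaving out lipid B gave −0.24 (adjusted p = 0.0167) for the first, and leaving out itaconate A or lipid + itaconate B brought the second past the threshold (0.23, adjusted p = 0.0379, and 0.21, adjusted p = 0.0457).

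**Figure D3:**
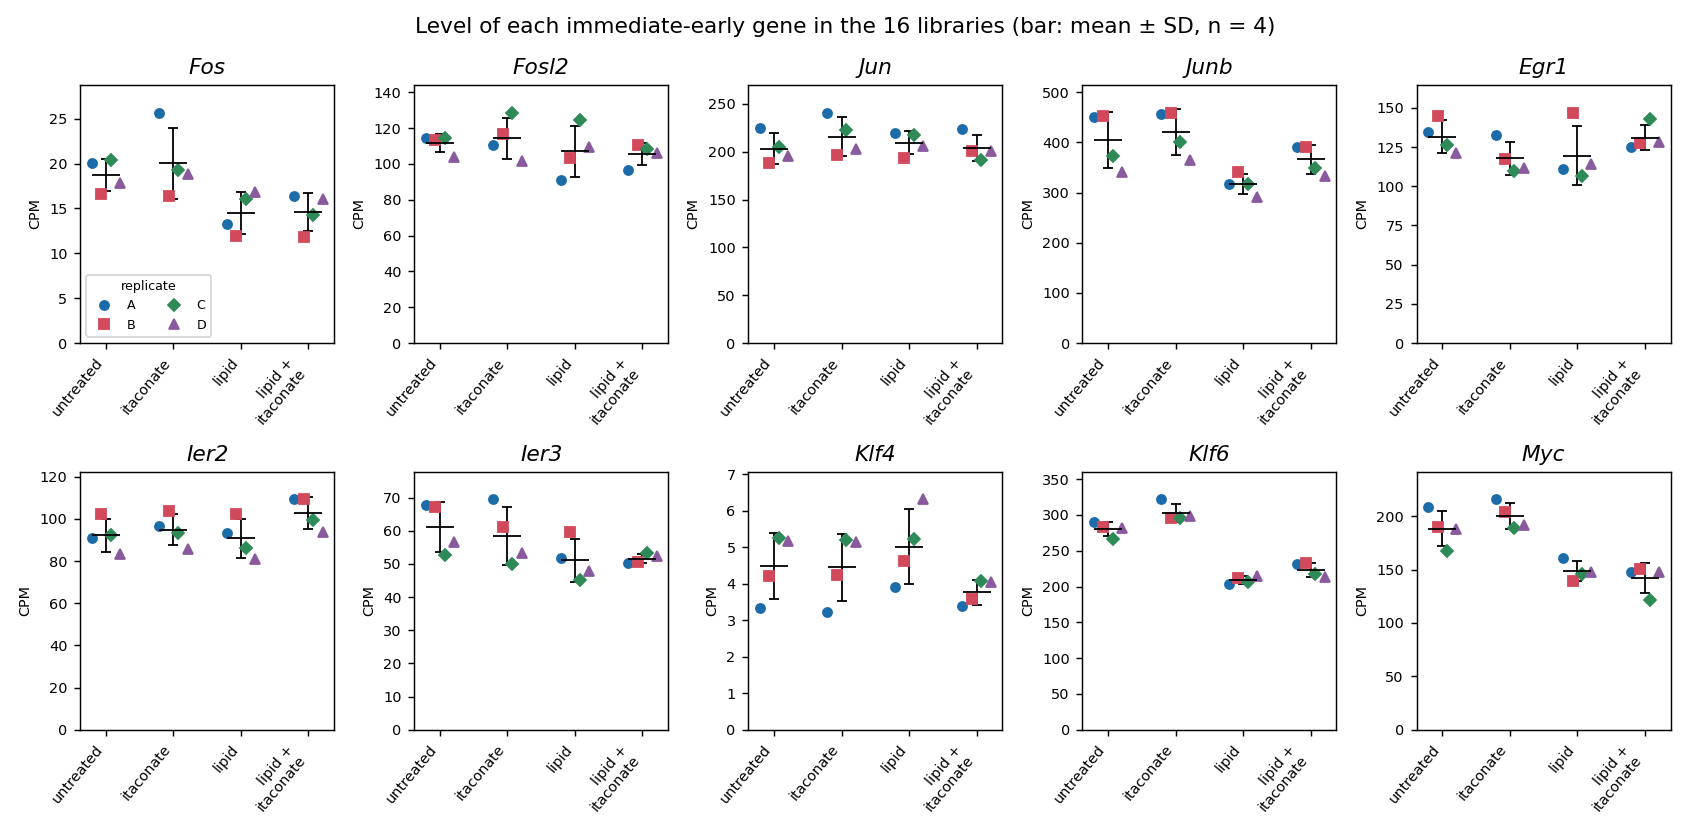
Level of each gene in CPM in the 16 libraries by group, with colour and shape for the replicate letter and a black bar for the mean ± SD (n = 4). All 8 libraries with lipid lie below all 8 without it for *Klf6* and *Myc*, while *Jun*, *Fosl2* and *Egr1* overlap between all groups.

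Levels of cell type markers moved with lipid too. The 7 hepatocyte markers (*Alb*, *Apoa1*, *Ttr* and 4 others) summed to 41000 to 55500 CPM (median 43300) in untreated, 36100 to 47000 CPM (38900) in lipid-treated, 41000 to 56000 CPM (45500) in itaconate-treated and 31800 to 52000 CPM (41600) in lipid + itaconate-treated hepatocytes. Without itaconate 3 of the 7 were called lower with lipid and none higher, with a median log2 fold change of −0.20, and with itaconate 4 were lower and 1 higher, with a median of −0.18, the same medians as those of the 10 genes. The 5 cholangiocyte markers summed to 600 to 1170 CPM (median 810) in untreated and 336 to 609 CPM (median 461) in lipid-treated hepatocytes, and to 573 to 1050 CPM (712) with itaconate and 356 to 646 CPM (484) with both. Nearly all of this was *Spp1* and *Sox9*, both called lower in each lipid comparison, while *Krt19*, *Krt7* and *Epcam* averaged 0.225, 0.0046 and 0.298 CPM. The 7 macrophage markers summed to 175 to 281 CPM and 227 to 321 CPM, mostly *Cd68*; of the 6 tested 1 was called higher and 3 lower, with a median of −0.43. With itaconate present the sums were 152 to 236 CPM without and 211 to 314 CPM with lipid, and 1 marker was called higher and 5 lower, with a median of −0.82. Of 5 endothelial markers tested 1 was higher and 1 lower without itaconate and 1 lower with it, and the stellate marker tested was called lower with itaconate present. The 6 endothelial and 8 stellate and fibroblast markers summed to 11.2 to 22.6 CPM and 16.3 to 25.6 CPM over all libraries, the latter mostly *Reln*, with *Col1a1*, *Col1a2* and *Col3a1* under 0.2 CPM in every library, and the neutrophil marker *Ly6g* was at 0 in all 16. The part of these cells in the changes of the 10 genes was not tested, and in bulk RNA fewer cells of a type and less RNA per cell cannot be told apart.

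Itaconate against untreated shows the effect of itaconate without the lipid load. The quasi-likelihood test of edgeR called none of the 10 genes, nor did DESeq2 or limma-trend, against 4.91% of all genes in edgeR. At an unadjusted p of 0.05 there was 1 gene, *Klf6*, against 21.3% of all genes. *Klf6* was also the gene of the 10 whose groups did not overlap (7.53% of all genes did not), with itaconate A (322 CPM) standing above the other 3 itaconate libraries. The median log2 fold change was 0.05 over the 10 and −0.002 over all genes. *Klf6* was 0.11 higher (95% interval 0.02 to 0.20, adjusted p = 0.128 by edgeR's quasi-likelihood test) and higher in 4 of 4 letters, as were *Myc* (0.09, −0.02 to 0.20), *Jun* (0.09, −0.01 to 0.18), *Junb* (0.06, −0.04 to 0.16) and *Ier2* (0.04, −0.04 to 0.12). *Egr1* was lower in 4 of 4 letters, at −0.16 (−0.33 to 0.01, adjusted p = 0.271). In a model of these 8 libraries alone, *Egr1* and *Klf6* passed (adjusted p = 0.0216 and 0.0280). That model called 1859 of 11675 genes, against 573 with all 16 libraries.

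Lipid + itaconate against lipid shows the effect of itaconate in lipid-loaded cells. Of the 10 genes 2 passed in edgeR's quasi-likelihood test, against 2.58% of all genes, and both were higher, against 1.32% of all genes. For none of the 10 were the 2 groups apart, against 5.82% of all genes. From lipid to lipid + itaconate *Junb* rose from 317 ± 20.1 to 366 ± 29.8 CPM (SD, n = 4) and in 4 of 4 letters, by 0.21 on the log2 scale (SE 0.0467, adjusted p = 0.0324), beside 0.14 for the overlapping *Prdx2* (adjusted p = 0.185). *Ier2* rose from 90.7 ± 9.23 to 103 ± 7.70 CPM and in 4 of 4 letters, by 0.18 (SE 0.0386, adjusted p = 0.0221). *Klf4* went from 5.02 ± 1.02 to 3.77 ± 0.339 CPM and was lower in 4 of 4 letters, but did not pass (−0.40, 95% interval −0.63 to −0.16, adjusted p = 0.0674). The other 7 lay between −0.07 (*Myc*) and 0.14 (*Egr1*), and the median of the 10 was 0.02 (−0.000 over all genes).

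Both calls were lost in other models, in which the folds stayed about as large. Calls over all genes fell too, from 301 of 11675 to 9 without the letter and to 14 in a model of the 8 libraries alone. By edgeR's quasi-likelihood test without the letter, *Junb* was at 0.21 (adjusted p = 0.494) and *Ier2* at 0.18 (adjusted p = 0.475), and in a model of the 8 libraries alone they were at 0.20 (adjusted p = 0.220) and 0.18 (adjusted p = 0.248). Neither gene passed without lipid A or D or lipid + itaconate A or D, and 1 of them did not without itaconate A or B, lipid B or C or lipid + itaconate B.

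Whether itaconate acted differently with and without lipid was tested as the interaction in the same model. None of the 10 genes passed after adjustment in edgeR's quasi-likelihood test, DESeq2 or limma-trend, against 1 gene of the 11675 in edgeR, 0.00857%. At an unadjusted p under 0.05 there were 5 (*Egr1*, *Ier2*, *Junb*, *Klf4* and *Myc*), against 8.60% of all genes. The estimates were 0.30 for *Egr1* (95% interval 0.06 to 0.54, unadjusted p = 0.0189, adjusted p = 0.481), 0.14 for *Ier2* (0.03 to 0.26, adjusted p = 0.480), 0.15 for *Junb* (0.01 to 0.29, adjusted p = 0.549), −0.38 for *Klf4* (−0.71 to −0.05, adjusted p = 0.511) and −0.16 for *Myc* (−0.31 to −0.0037, adjusted p = 0.566). Within letters, the itaconate ratio of *Egr1*, *Ier2* and *Junb* was higher with lipid than without in 4 of 4 letters, that of *Klf4* and *Jun* was lower in 4 of 4, and that of *Myc* lower in 3 of 4. For *Egr1* the log2 ratios were −0.02, −0.30, −0.20 and −0.12 without lipid and 0.18, −0.20, 0.43 and 0.17 with it, so that letter B kept a negative ratio. Without a filter on low counts *Egr1* passed (0.29, adjusted p = 0.0174), among 231 of 25152 genes called.

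**Figure D4:**
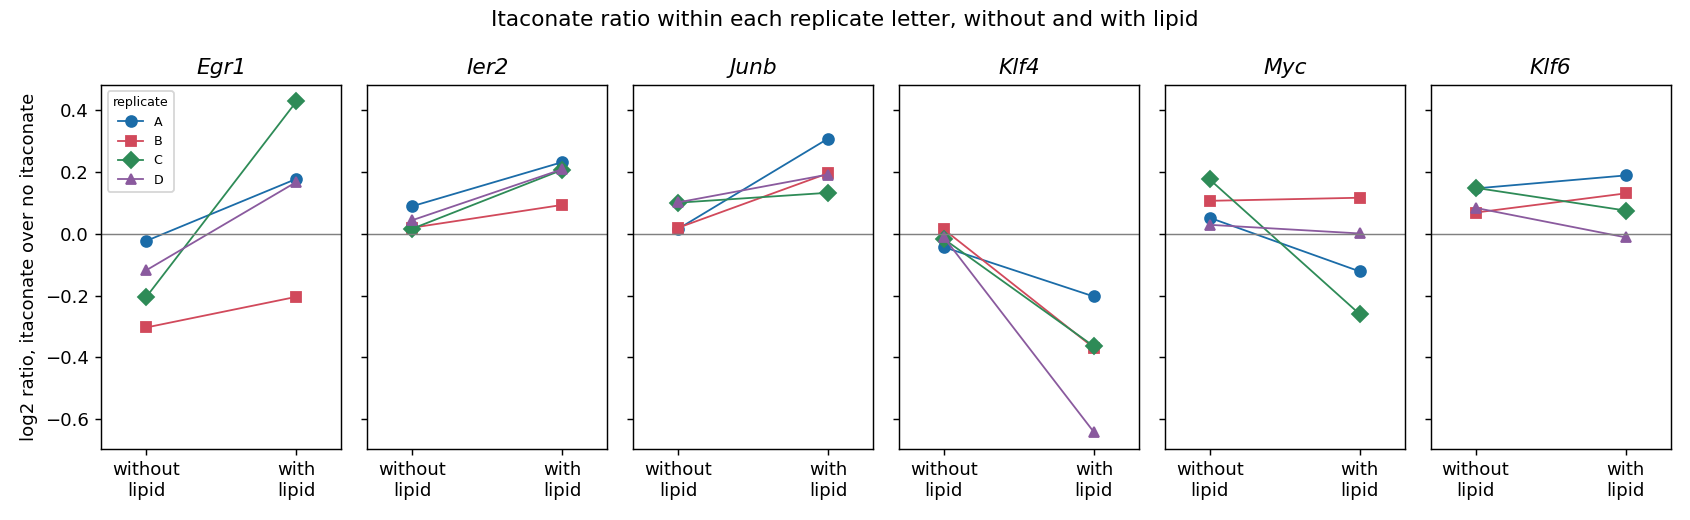
Log2 ratio of itaconate over no itaconate within each replicate letter, without and with lipid, for the 5 genes with an unadjusted interaction p under 0.05 and for *Klf6*. *Egr1*, *Ier2* and *Junb* lines climb in all 4 letters and *Klf4* lines drop in all 4, while for *Klf6* 2 lines climb and 2 drop; no interaction passed the adjustment.

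Related early-response genes were counted from lists, as lower or higher where they passed the same test and threshold. The shares to read them against are the 23.7% of all genes called lower and 47.5% called either way with lipid, and 23.5% and 47.0% with itaconate present. For itaconate alone 4.91% of all genes were called either way, and for itaconate added to lipid 2.58%. Counts near these are no result about a list. Of 9 AP-1 relatives tested 4 were lower with lipid and none higher, led by *Maff* (169 ± 4.07 to 113 ± 12.0 CPM, −0.58) and *Mafk* (−0.53), small MAF proteins that lack an activation domain. With itaconate in both groups 5 were lower and none higher, with *Maff* at −0.61 and *Mafk* at −0.60. *Maff* was also the 1 relative that passed with itaconate alone, where it rose by 0.26 (adjusted p = 0.0311, edgeR's quasi-likelihood test). Of 10 other early-response transcription factors 5 were lower and 1 higher with lipid, and 7 and 1 with itaconate present. Without itaconate, *Cebpd*, an acute-phase regulator, fell from 35.1 ± 6.77 to 13.5 ± 4.72 CPM (−1.41), *Irf1*, of the interferon response, by 0.72 and *Csrnp1* by 0.53. *Nfil3* was the 1 of these factors that passed with itaconate alone, where it rose by 0.28 (adjusted p = 0.00336, edgeR's quasi-likelihood test). The lipid medians without itaconate were −0.09 for the AP-1 relatives and −0.29 for these factors, against 0.005 over all genes tested.

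Of 9 other KLF genes tested, 2 were lower and 1 higher with lipid, 3 and 2 with itaconate present, and 1 was lower and 1 higher when itaconate was added to lipid (*Klf13*, a rise of 0.28). *Klf10*, an early target of TGF-β, went from 33.6 ± 0.579 to 71.0 ± 11.6 CPM, a rise of 1.08 on the log2 scale (adjusted p = 2.76e-07 by edgeR's quasi-likelihood test), and fell by 0.42 when itaconate was added to lipid (adjusted p = 0.0245). *Klf3* and *Klf11* fell with lipid by 0.32 and 0.35.

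Among 22 early-response feedback genes, which damp the signals that induce the 10, 8 were lower and 4 higher with lipid, and 11 and 3 with itaconate present. The 12 called without itaconate were a share close to that of all genes. The 11 lower with itaconate present were a larger share than the 23.5% of all genes called lower. The largest falls with lipid, without itaconate, were of inhibitors of NF-κB and cytokine signalling: *Tnfaip3* fell from 45.9 ± 4.60 to 23.0 ± 2.09 CPM (−0.99), *Socs3* from 32.1 ± 2.48 to 18.9 ± 1.58 CPM (−0.77) and *Nfkbia* by 0.72. When itaconate was added to lipid 4 of the 22 were higher and none lower, against 1.32% of all genes called higher. Among the 4 were *Socs3* at 0.41 (adjusted p = 0.00501, edgeR's quasi-likelihood test), *Tnfaip3* at 0.32 (adjusted p = 0.0342) and *Dusp6*, a phosphatase of ERK, at 0.24 (adjusted p = 0.0441). Calls over all genes in that comparison fell from 301 to 9 without the letter, to 14 with its 8 libraries alone and to 136 without lipid + itaconate B. Whether genes of the lists, *Klf10* and *Klf13* among them, stayed called there was not looked at. *Dusp6* and *Dusp8* were the 2 genes of this list called with itaconate alone, where both rose.

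Of 19 upstream signalling genes, 5 were lower and 2 higher with lipid, a smaller share than of all genes. With itaconate present 9 were lower and 6 higher, a larger share than the 47.0% of all genes called either way. The medians were −0.06 without and 0.01 with itaconate. Without itaconate, *Elk4*, a partner of serum response factor, fell by 0.29, and *Egfr*, the EGF receptor, fell by 0.27 (485 ± 50.4 to 400 ± 17.0 CPM). Itaconate alone raised 1 of the 19, *Mrtfb*, by 0.14 (adjusted p = 0.0427, edgeR's quasi-likelihood test) and lowered none. Added to lipid it raised *Mrtfa* by 0.24 (adjusted p = 0.0269, same test) and lowered none. Of 11 serum response factor targets 2 were higher and 2 lower with lipid, and 3 and 2 with itaconate present. *Ccn1*, a matricellular protein, rose with lipid from 188 ± 22.3 to 298 ± 40.0 CPM (0.67) without itaconate and by 0.48 with it. *Actb* fell by 0.18 without itaconate. Itaconate alone lowered 1 of the 11 and raised none: *Plaur* fell from 28.0 ± 4.34 to 19.7 ± 2.47 CPM (−0.51, adjusted p = 0.00389 by edgeR's quasi-likelihood test).

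Around *Myc*, 4 of 7 genes of its network were lower with lipid and 2 higher, both without and with itaconate. *Mxd4* and *Mxd1*, which compete with MYC for MAX, fell by 0.81 and 0.56. Of 12 MYC-responsive growth genes 3 were lower with lipid (*Fbl*, −0.30; *Npm1*, −0.21; *Cdk4*, −0.16) and none higher, about the share of all genes called lower, with a median of −0.00. With itaconate present 4 were lower and none higher, with a median of −0.14. In both itaconate comparisons no gene of these 2 lists passed, where 4.91% of all genes passed without lipid and 2.58% with it.

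As a description, the pattern over the 16 libraries, after the mean of each letter was taken away from log2 CPM, was most alike between *Fos* and *Mindy2* (Pearson's r = 0.97), *Dnah10* (0.96) and *Rc3h1* (0.94). For *Jun* the closest genes were *Mup2* (0.96), *Per1* (0.92) and *Aspg* (0.92), for *Klf6* they were *Sgms2*, *Gabpb2* and *Ext1* (0.99 each), and for *Myc* they were *Aldh1a7* (0.98), *S1pr1* (0.98) and *Rnd1* (0.97). Within the 10, *Klf6* went with *Myc* (0.92), *Junb* (0.91) and *Fos* (0.89), and *Fos* with *Jun* only at 0.39. The points share treatment groups and libraries.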

How the data were processed

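Per the labels, the authors demultiplexed reads with bcl2fastq 2.20, trimmed them with cutadapt 1.18, aligned them to mm10 with STAR 2.7.0f and quantified genes with RSEM 1.3.1. The deposited values are RSEM expected counts per gene, without normalization, and 5.41% of them were not whole. The library kit was stranded, and the strand setting of the counting is not given in the sources used here.

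Counts were rounded and tested with edgeR 4.0.16 in R 4.3.3 (TMM scaling, mean of at least 1 CPM, 11675 genes, quasi-likelihood test, treatment and replicate letter as terms, all 16 libraries, Benjamini-Hochberg adjustment over all genes tested, threshold 0.05). Intervals are 95%, and the standard error is the fold change divided by the square root of F. Positions and exon lengths come from GENCODE mouse release 21 (GRCm38). The 4 list symbols absent from the table were matched through RefSeq synonyms. The CPM filter used plain library totals. The CPM levels given use the same TMM factors as the test, and log2 CPM a prior count of 2. The script was tested on simulated data.

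The letters pair the libraries: deviations from the group means correlated at 0.152 to 0.492 in all 24 pairs of libraries with 1 letter, against a median of −0.123 over 72 other pairs. The letter was therefore a term of the model.

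The genes named are all 10 members, at most the 3 called genes with the largest change per list and comparison, and the 3 genes most alike to *Fos*, *Jun*, *Klf6* and *Myc*. *Prdx2*, *Junos*, *Jund*, *Fosl1*, *Fosb* and the markers are named beside the results they touch. The members and lists were chosen with earlier results of these data known. Alternatives were no letter term, RLE scaling, filterByExpr, no filter, 8 libraries only, DESeq2 1.42.0, limma-trend (limma 3.58.1) and each library left out in turn.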

Additional observations from a re-analysis of the deposited data

Results flagged for a closer look

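Of the 40 sets of 4 libraries (10 genes in 4 groups), 4 had a library that stood apart, its gap to the nearest library taking more of the group's range than Dixon's 95% limit allows. Chance alone gives this in about 1 in 20 groups. *Fosl2* was low in untreated D, with a gap of 0.888 of the range. *Egr1* was high in lipid + itaconate C (0.833), and *Myc* was low in the same library (0.908), which also had the highest share of mitochondrial counts, 6.01%. *Klf6* was high in itaconate A (0.895). The cause of these was not tested.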

How the results depend on the processing

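RLE scaling, filterByExpr, DESeq2 and limma-trend kept the number of the 10 genes called in each of the 5 tests. Without the replicate block the numbers were 0 (2 with it) for lipid + itaconate against lipid, 3 (5) for lipid against untreated and 3 (5) for lipid + itaconate against itaconate. Over all 11675 genes, in the same order, the calls were 9 (301), 4149 (5546) and 3990 (5483). With 8 libraries in the model 2 genes were called for itaconate against untreated and 0 for lipid + itaconate against lipid, while lipid against untreated had 6 (*Egr1* gained) and lipid + itaconate against itaconate 4 (*Ier2* lost). In the same order, calls over all 11675 genes were 1859 (573 with all 16 libraries), 14 (301), 5636 (5546) and 4793 (5483). Without a filter 1 interaction (*Egr1*) was called, and lipid + itaconate against itaconate had 6 (*Egr1* and *Ier3* gained, *Ier2* lost). Of 25152 genes 231 were then called for the interaction and 5579 for lipid + itaconate against itaconate, against 1 and 5483 of 11675 with the filter. The cause of these moves was not tested.

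With each library left out in turn, the number called ran from 0 to 2 for lipid + itaconate against lipid: 0 without lipid A or D or lipid + itaconate A or D, and 1 without itaconate A or B, lipid B or C or lipid + itaconate B. It ran from 4 to 6 in both lipid comparisons and was 0 throughout for itaconate against untreated and for the interaction. Small changes that were never called turned their sign when a library was left out. For itaconate against untreated the log2 fold change ran from −0.019 to 0.15 for *Fos*, −0.0070 to 0.094 for *Fosl2* and −0.051 to 0.029 for *Klf4*. For lipid + itaconate against lipid it ran from −0.10 to 0.086 for *Fos*, −0.078 to 0.029 for *Fosl2*, −0.071 to 0.0074 for *Jun* and −0.059 to 0.086 for *Ier3*, and for the interaction from −0.19 to 0.026 for *Fos* and −0.052 to 0.0084 for *Klf6*.

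*Klf6* and *Myc* were called lower in both lipid comparisons under all 23 alternatives. The counts per library were lowest for *Klf4* (71 to 187) and *Fos* (307 to 708).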
